A study of Mus musculus with 40 samples.

Results

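A set of 10 enzymes of branched-chain amino acid breakdown was followed in subcutaneous white adipose tissue (sWAT) of mice. The set was taken by symbol from the deposited count table, is defined by symbol and not by measured values, and all 10 of 10 genes were found among the 34843 symbols listed. The tissue came from 5 groups of 8 libraries each: mice fed a high-fat diet (HFD) and treated with tirzepatide, mice fed HFD and treated with semaglutide, mice switched from HFD to normal diet (Diet switch), mice kept on HFD, and mice fed normal diet (ND). The 4 groups other than ND all had HFD in their history. Semaglutide is a peptide agonist of the glucagon-like peptide-1 receptor, and tirzepatide acts on that receptor and on the receptor for glucose-dependent insulinotropic polypeptide. The study asked which genes stay altered and which return towards the lean state in these groups. Strain, sex, age, drug dose, treatment time and whether Diet switch mice had earlier received a drug are not stated by the labels. The labels number the samples without tying each to its own animal, and the p-values therefore describe only how these samples vary, which may be technical.

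Leucine, isoleucine and valine lose their amino group to the aminotransferase encoded by Bcat2 in mitochondria or by Bcat1 in the cytosol. The branched-chain ketoacid dehydrogenase complex, whose subunits are encoded by Bckdha, Bckdhb and Dbt, then commits the carbon skeletons to breakdown. Its kinase, from Bckdk, switches it off by phosphorylation and its phosphatase, from Ppm1k, switches it on. Ivd, Mccc1, Mccc2 and Auh encode consecutive steps of the leucine branch, and Hibch encodes a step of the valine branch. In adipocytes the pathway supplies acetyl-CoA for lipid synthesis, and its enzymes are known to increase during adipocyte differentiation and to be low in fat of obese rodents.

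Of the 10 genes, 3 passed a test in at least 1 comparison, namely Bcat2, Ivd and Mccc1, and the bases just before their annotated starts are shown because they differ in the short motifs they hold. RefSeq promoter windows (GRCm38.p6) matched 9 of the 10 symbols, all but Dbt, with 11 windows in all. Each window of 250 bases upstream of a start was searched on both strands for the letters CCAAT (the CCAAT box), GGGCGG (the GC box), CACGTG (the E-box), AAGGTCA (an extended nuclear receptor half-site) and CGCATGCG (the core of the NRF1 motif), none of which contains another. Capitals mark every match, so that ATTGG and CCGCCC are the reverse-strand letters of the first 2 motifs. The windows below end before the start that GENCODE M21 gives for the gene. The Bcat2 window lies at chr7:45569903-45570152 on the plus strand, Ivd at chr2:118861744-118861953 on the plus strand, Mccc1 at chr3:36000679-36000928 on the minus strand, and Mccc2, the partner subunit of Mccc1, at chr13:100015640-100015889 on the minus strand.
Bcat2: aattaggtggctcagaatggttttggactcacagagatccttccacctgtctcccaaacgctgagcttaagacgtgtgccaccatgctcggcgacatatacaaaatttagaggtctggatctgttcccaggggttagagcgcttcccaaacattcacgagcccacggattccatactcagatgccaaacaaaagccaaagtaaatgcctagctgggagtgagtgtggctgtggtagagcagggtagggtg
Ivd: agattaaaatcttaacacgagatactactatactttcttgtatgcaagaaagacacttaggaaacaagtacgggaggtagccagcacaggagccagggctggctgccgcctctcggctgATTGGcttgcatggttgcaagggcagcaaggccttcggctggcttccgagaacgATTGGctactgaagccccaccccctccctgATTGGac
Mccc1: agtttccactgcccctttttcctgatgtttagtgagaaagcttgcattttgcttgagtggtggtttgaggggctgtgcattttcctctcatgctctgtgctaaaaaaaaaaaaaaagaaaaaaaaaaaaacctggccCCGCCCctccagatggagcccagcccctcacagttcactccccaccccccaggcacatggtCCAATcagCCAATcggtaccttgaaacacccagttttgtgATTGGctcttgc
Mccc2: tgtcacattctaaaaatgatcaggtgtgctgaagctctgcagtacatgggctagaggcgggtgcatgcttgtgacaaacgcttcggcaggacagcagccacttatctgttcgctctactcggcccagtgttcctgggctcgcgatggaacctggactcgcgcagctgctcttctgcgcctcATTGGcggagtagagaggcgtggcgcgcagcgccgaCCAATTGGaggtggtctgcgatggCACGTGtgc
The full 250-base Ivd window held 4 copies of CCAAT, 3 of them in the stretch shown, and the windows of Mccc1 and Mccc2 held 3 each, 2 of which overlap in Mccc2 as CCAATTGG. Copy number was looked at after the windows had been seen. At least 3 copies were found in 2.79% of the 32851 windows of that length in the RefSeq table and at least 1 copy in 33.8%. The Bcat2 windows held none of the 5 motifs. CCAAT was also found at 1 place before Bckdk and at 2 places before Bckdhb, and GGGCGG, present in 32.7% of all windows, was found before Bckdhb, Mccc1, Auh and Hibch. The Mccc2 window held the only CACGTG among the members, against 6.02% of all windows, and no member window held AAGGTCA (4.08% of all windows) or CGCATGCG (1.55%). A match describes the letters only.

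Libraries were made with the QuantSeq kit, which reads the 3' end of transcripts, and held 2115471 to 7445548 counts, with a median of 3765320. All 10 genes passed the filter on low counts, among the 15807 genes tested. Values are given in CPM, counts scaled to library size. Adipocyte markers were high in every library, with a mean level over 10 genes of 9.71 to 10.89 log2 CPM. A total of 10 libraries had a mean level over 14 skeletal muscle genes above 5 log2 CPM: 4 of Tirzepatide, 3 of Diet switch, 1 of HFD and 2 of ND. Another 4 libraries had B cell genes above the same level, 3 of Semaglutide and 1 of ND. In bulk tissue, fewer cells of a type and less RNA per cell cannot be told apart. Diet switch libraries 3, 4 and 7 held the highest values of their group for some pathway genes described below, and were left out together as an alternative chosen with earlier results known. For some of the results below, values without these libraries are also given. Where they are not given, independence of these libraries is not implied.

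On HFD against ND, 1 of the 10 enzymes fell and none rose, while 1.68% of all genes tested were called lower and 2.83% higher at an adjusted p of 0.05. The enzyme that fell was Ivd. The median log2 fold change of the 10 was -0.14, beside -0.04 over all genes tested, and 4 of the 10 were positive. Bcat2 and Mccc1 had log2 fold changes of -0.57 ± 0.20 and -0.46 ± 0.17 (SE) that did not pass (adjusted p = 0.1 and 0.123).

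Each treated group was then set against continued HFD, and these comparisons share the 8 HFD libraries with each other and with HFD against ND. In Tirzepatide against HFD, 2 of 10 rose, Bcat2 and Ivd, and none fell, beside 9.79% of all genes called higher and 10.7% called lower. In Diet switch against HFD, 1 of 10 rose, Mccc1, and none fell, beside 12.8% called higher and 10.9% called lower. With 10 genes, counts of 1 or 2 are near these shares. In Semaglutide against HFD, edgeR called 0 of 10, beside 1.52% of all genes called higher and 2.63% called lower. DESeq2 and limma-voom also called 0, and 1 gene, Auh, had an unadjusted p under 0.05. The median log2 fold changes of the 10 were 0.20 in Tirzepatide, 0.11 in Semaglutide and 0.35 in Diet switch, beside 0.03, 0.05 and 0.03 over all genes.

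**Figure D1:**
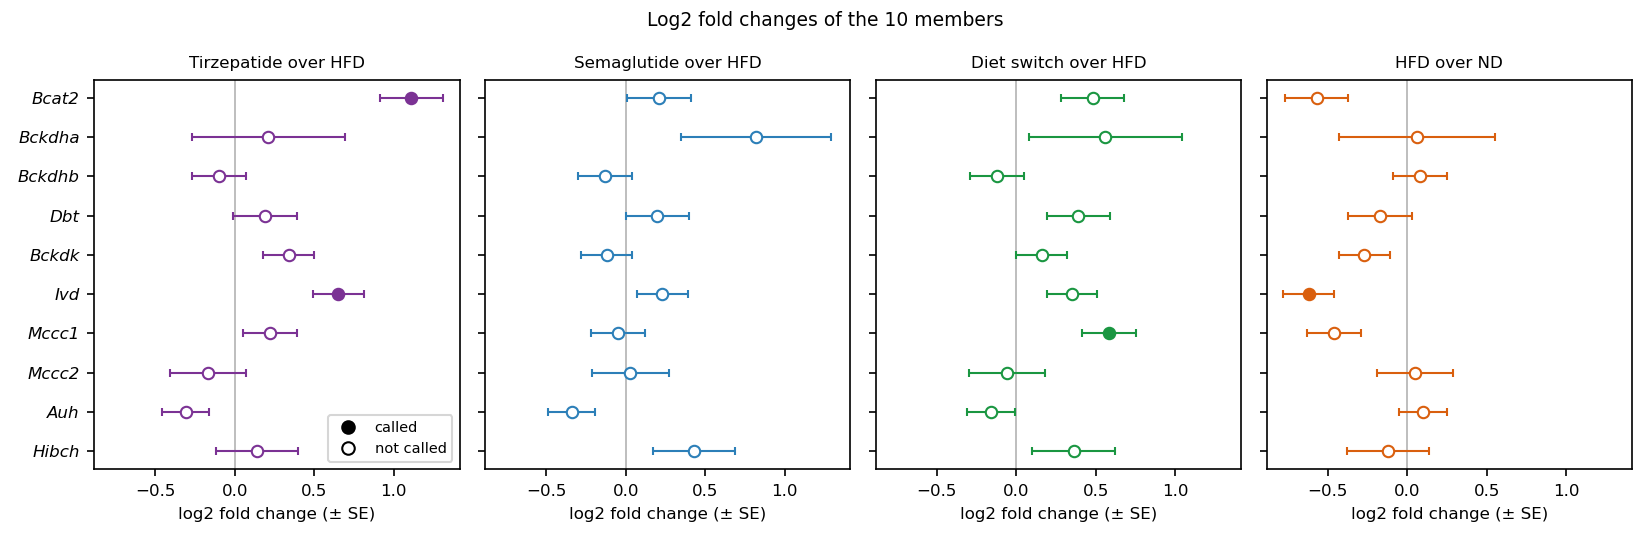
Log2 fold change (x axis, ± SE) of each of the 10 enzymes (y axis) in Tirzepatide, Semaglutide and Diet switch over HFD and in HFD over ND, 8 libraries a group. Filled points passed an adjusted p of 0.05: Bcat2 and Ivd in Tirzepatide over HFD, Mccc1 in Diet switch over HFD and Ivd in HFD over ND.

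None of the 10 was called by edgeR in Tirzepatide, Semaglutide or Diet switch against ND. All genes were called higher and lower at 4.30% and 5.77% in Tirzepatide against ND, at 0.905% and 1.73% in Semaglutide against ND, and at 7.97% and 6.82% in Diet switch against ND. At an unadjusted p under 0.05 there were 1, 3 and 0 of the 10 in these comparisons, DESeq2 called 0 in each, and limma-voom called 1 in Semaglutide against ND, Mccc1, and 0 in the others. Between treatments, Bcat2 was higher in Tirzepatide than in Semaglutide, beside 4.11% of all genes called higher and 5.92% called lower. Mccc1 was lower in Semaglutide than in Diet switch, beside 7.00% called lower and 6.29% called higher. None was called between Tirzepatide and Diet switch, where 0.114% of all genes were called higher and 0.285% lower, where 2 of the 10 had an unadjusted p under 0.05 and where DESeq2 and limma-voom also called 0. Doses and times of both drugs are not known here, so a difference between them is one between these groups of libraries.

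Bcat2, the mitochondrial aminotransferase (chr7:45570153-45589711, plus strand), was the enzyme with the largest change among the 10. The lowest, median and highest libraries had 70.7, 199 and 330 CPM in Tirzepatide, 58.2, 106 and 156 CPM in Semaglutide, 90.4, 135 and 145 CPM in Diet switch, 62.7, 87 and 154 CPM in HFD, and 103, 120 and 205 CPM in ND. In all, 7 of 8 Tirzepatide libraries lay above the HFD median and library 4, with 70.7 CPM, lay below it, so the groups overlapped. Means were 198 ± 76.6 CPM in Tirzepatide and 91.8 ± 28.4 CPM in HFD (SD, n = 8 each), a log2 fold change of 1.11 ± 0.20 (SE, adjusted p = 9.35e-05). Against Semaglutide, with 106 ± 29.7 CPM, the log2 fold change of Tirzepatide was 0.89 ± 0.20 (adjusted p = 0.00364). It was 0.86 ± 0.23 without the libraries high in B cell genes (adjusted p = 0.0206). Without those high in muscle genes it was 1.01 ± 0.21 (adjusted p = 0.00698). Against Diet switch the log2 fold change of Tirzepatide was 0.62 ± 0.20 and against ND 0.54 ± 0.20, and neither passed (adjusted p = 0.145 and 0.0713). The Diet switch mean of 128 ± 17.8 CPM was above the HFD median in 8 of 8 libraries, with a log2 fold change of 0.48 ± 0.20 that did not pass (adjusted p = 0.0696). In order of mean, the groups ran Tirzepatide, ND, Diet switch, Semaglutide, HFD, and no neighbours in that order differed by the test.

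Skeletal muscle RNA moved with several of the groups compared. The mean level of the muscle list was 4.73 ± 2.11 log2 CPM in Tirzepatide (1.55 to 7.16), 2.32 ± 1.25 log2 CPM in Semaglutide (1.07 to 4.31), 4.08 ± 2.21 log2 CPM in Diet switch (1.38 to 7.43), 2.16 ± 1.31 log2 CPM in HFD (1.21 to 5.30) and 4.24 ± 2.35 log2 CPM in ND (2.14 to 7.80). Of its 14 genes 13 were tested, and none of the 14 was at 0 in any group. In Tirzepatide against HFD 4 rose, in Diet switch against HFD 2 rose, in HFD against ND 2 fell, and all 13 were positive in the first 2 of these comparisons and negative in the last. Without the 10 libraries high in muscle genes, the Bcat2 log2 fold change of Tirzepatide over HFD was 1.21 ± 0.22 (adjusted p = 0.000419). Leaving out each library in turn gave 0.96 to 1.25.

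**Figure D2:**
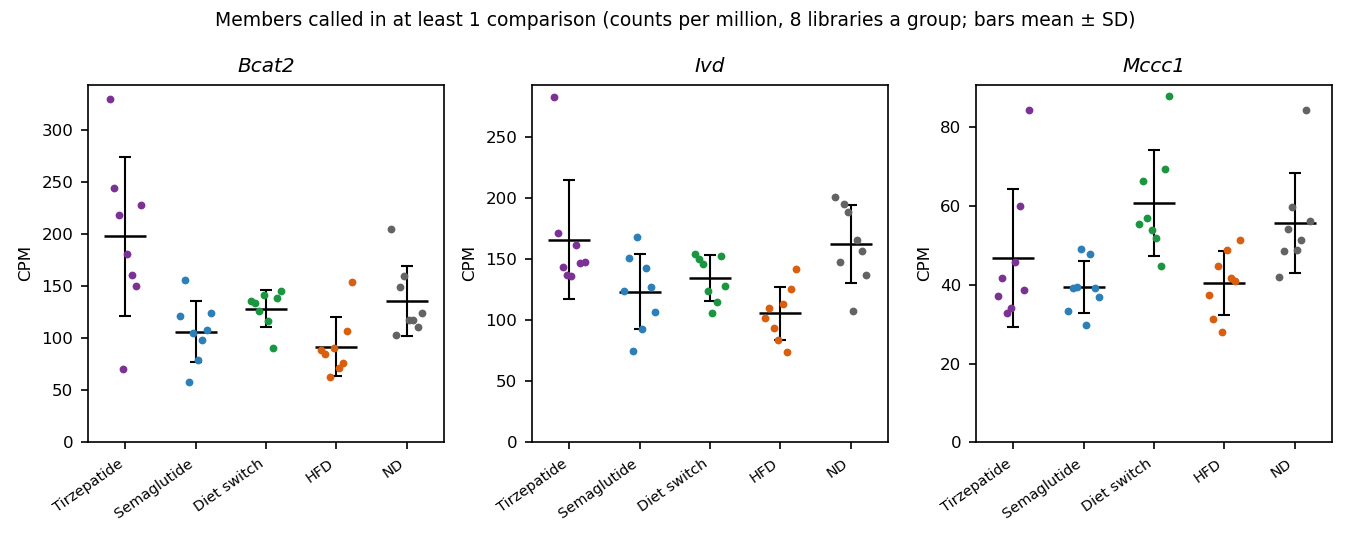
CPM (y axis) of Bcat2, Ivd and Mccc1 in the 8 libraries of each group (x axis), with mean and SD as bars. Bcat2 averaged 198 CPM in Tirzepatide and 91.8 CPM in HFD, Ivd 166 and 106 CPM in the same groups, and Mccc1 60.8 CPM in Diet switch and 40.6 CPM in HFD.

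The cytosolic aminotransferase Bcat1, which does the same reaction and in adult rodents is best known from brain, rose on HFD. Its libraries lay between 5.65 and 19.7 CPM in HFD and between 0.286 and 4.71 CPM in ND. Every HFD library was above every ND library. Means were 11.1 ± 4.59 CPM in HFD and 2.37 ± 1.56 CPM in ND (log2 fold change 2.25 ± 0.38, adjusted p = 8.44e-05). It fell to 5.03 ± 2.03 CPM in Tirzepatide and to 5.43 ± 2.75 CPM in Diet switch, against 11.1 CPM in HFD (log2 fold changes -1.13 ± 0.35 and -1.03 ± 0.35, adjusted p = 0.0189 and 0.0283). Both of these calls were lost without the libraries high in muscle genes, at -1.07 ± 0.45 and -0.87 ± 0.42 (adjusted p = 0.131 and 0.157). The Tirzepatide call was also lost without HFD library 2 (adjusted p = 0.0615). With muscle level as a covariate it was lost too, at -1.05 ± 0.39 (adjusted p = 0.0663). The Diet switch call was lost under 8 of the alternatives in all, among them those without HFD library 2 or 5 or Diet switch library 3, 6 or 8, at adjusted p-values of 0.0502 to 0.0891. The Semaglutide mean, 5.88 ± 2.77 CPM, was near those of Tirzepatide and Diet switch and below the 11.1 CPM of HFD. Bcat1 was not called there against HFD, which does not show that it was unchanged. Within a library, the log2 difference of Bcat2 over Bcat1 was 5.13 ± 1.00 in Tirzepatide, 4.18 ± 1.16 in Semaglutide, 4.58 ± 0.80 in Diet switch, 3.04 ± 0.78 in HFD and 5.73 ± 0.86 in ND. It was at most 4.51 in HFD libraries and at least 4.50 in ND libraries.

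The 3 measured subunit genes of the ketoacid dehydrogenase complex were called in none of the 10 comparisons. Bckdha, the E1 alpha subunit, had between 0 and 39 counts per library, and its group means lay between 2.09 and 3.89 CPM with SDs of 1.05 to 3.16 CPM. Its log2 fold changes had SEs of 0.46 to 0.49. Values of 0.82 ± 0.47 in Semaglutide against HFD and 0.88 ± 0.48 in Semaglutide against ND did not pass (adjusted p = 0.339 and 0.397). Changes of this size could thus be missed, and low depth and spread between libraries were not separated. The annotated last base of Bckdha is also covered by B3gnt8 on the opposite strand, and it is not stated whether strand was used in counting, so its few counts are uncertain. Bckdhb, the E1 beta subunit, had group means of 35.8 ± 5.60 CPM in Tirzepatide, 34.9 ± 9.98 CPM in Semaglutide, 35.3 ± 7.16 CPM in Diet switch, 38.3 ± 5.37 CPM in HFD and 36.4 ± 11.2 CPM in ND. Its largest log2 fold change in size over the 10 comparisons was -0.13 ± 0.17. Dbt, the E2 core subunit, had means of 32.5 ± 12.4, 33.1 ± 7.68, 37.9 ± 9.13, 28.8 ± 7.45 and 32.5 ± 8.70 CPM in the same order of groups. Its log2 fold change was 0.39 ± 0.20 in Diet switch against HFD (adjusted p = 0.149). All groups overlapped for all 3 genes.

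Of the 2 genes that control the complex, Bckdk, the kinase, had 40.2, 46.3 and 70.4 CPM in the lowest, median and highest Tirzepatide libraries, 19.4, 37.1 and 47.1 CPM in Semaglutide, 28.1, 46.1 and 60.4 CPM in Diet switch, 33.7, 38.7 and 55.0 CPM in HFD and 33.7, 47.4 and 63.1 CPM in ND. Tirzepatide libraries were above the Semaglutide median in 8 of 8, and the log2 fold change of 0.46 ± 0.16 lay just outside the threshold (adjusted p = 0.0563). DESeq2 put it inside, at 0.0438. Tirzepatide libraries were also above the HFD median in 8 of 8, with a log2 fold change of 0.34 ± 0.16 that did not pass (adjusted p = 0.126). Ppm1k, the phosphatase, rose in Tirzepatide to 18.7 ± 3.66 CPM, against 9.91 ± 2.54 CPM in HFD (log2 fold change 0.91 ± 0.22, adjusted p = 0.00295). All 8 Tirzepatide libraries lay above the HFD median, and the call was kept under every alternative tried, with log2 fold changes of 0.81 to 1.03. Ppm1k also rose in Diet switch, with a mean of 17.3 ± 7.98 CPM and a log2 fold change of 0.80 ± 0.22 (adjusted p = 0.00742). Diet switch libraries 3, 4 and 7 held the highest values, 27.0, 25.8 and 24.8 CPM, and without them the log2 fold change was 0.29 ± 0.23 (adjusted p = 0.487). The last base of Ppm1k is covered by Gm45193 on the opposite strand, so its counts are uncertain in the same way. The same holds for Pcca, Slc7a5 and Pdha1, described below, whose last bases are covered by Ggact, Gm20388 and Map3k15 on the opposite strand. The log2 difference of Bckdk over Ppm1k averaged 1.42 ± 0.37 in Tirzepatide, 1.29 ± 0.70 in Semaglutide, 1.46 ± 1.01 in Diet switch, 1.99 ± 0.43 in HFD and 1.82 ± 0.36 in ND, and the groups overlapped.

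**Figure D3:**
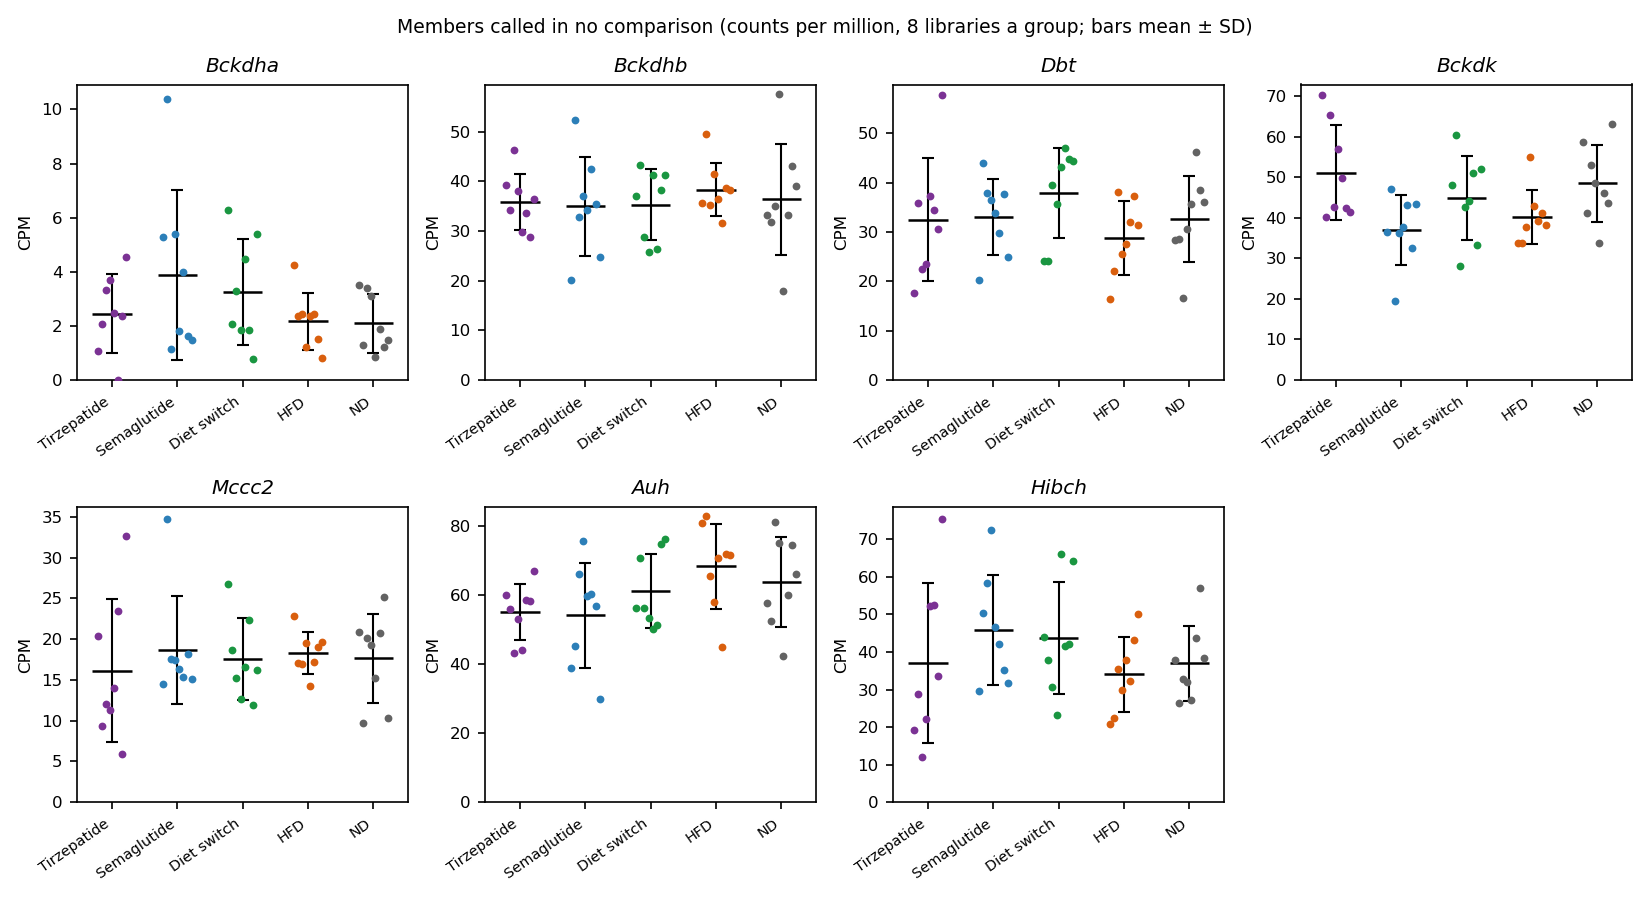
CPM (y axis) of the 7 enzymes called in no comparison, in the 8 libraries of each group (x axis), with mean and SD as bars. Groups overlapped for each gene, and Bckdha stayed at or under 10.4 CPM.

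Ivd, the isovaleryl-CoA dehydrogenase that carries out the first step particular to leucine (chr2:118861954-118882909, plus strand), was the member that fell on HFD. Its lowest, median and highest libraries had 74.4, 106 and 142 CPM in HFD and 108, 162 and 201 CPM in ND. All 8 HFD libraries lay below the ND median, and the ranges overlapped through ND libraries 5, the one with high B cell genes, and 8, at 108 and 137 CPM. Means were 106 ± 22.2 CPM in HFD and 163 ± 31.9 CPM in ND (log2 fold change -0.62 ± 0.16, adjusted p = 0.0108). Without the libraries high in B cell genes it was -0.68 ± 0.15 (adjusted p = 0.00225). Muscle genes were lower in HFD too, and without the libraries high in them it was -0.62 ± 0.17 (adjusted p = 0.0335). In Tirzepatide the lowest, median and highest libraries had 136, 148 and 283 CPM, and 8 of 8 lay above the HFD median. The mean of 166 ± 48.6 CPM in Tirzepatide, against 106 CPM in HFD, gave a log2 fold change of 0.65 ± 0.16 (adjusted p = 0.00267). Library 1, at 283 CPM, stood above the next, at 172 CPM, and leaving out each library in turn gave 0.50 to 0.72, all of them called. Without the 10 libraries high in muscle genes the log2 fold change was 0.53 ± 0.19 and did not pass (adjusted p = 0.0694). With muscle level as a covariate it was 0.63 ± 0.18 and passed (adjusted p = 0.0132). Against ND the log2 fold change of Tirzepatide was 0.03 ± 0.16 (adjusted p = 0.94). Semaglutide, at 124 ± 30.9 CPM, and Diet switch, at 134 ± 18.6 CPM, lay between HFD and ND and passed against neither group.

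Mccc1, the biotin-carrying alpha subunit of methylcrotonyl-CoA carboxylase (chr3:35959312-36000678, minus strand), rose in Diet switch. Its lowest, median and highest libraries had 44.8, 56.1 and 87.9 CPM in Diet switch and 28.0, 41.4 and 51.5 CPM in HFD. All 8 Diet switch libraries were above the HFD median, and 1 of them, library 6 at 44.8 CPM, was below the highest HFD library. Means of 60.8 ± 13.5 CPM in Diet switch and 40.6 ± 8.16 CPM in HFD gave a log2 fold change of 0.58 ± 0.17 (adjusted p = 0.00953). Without Diet switch libraries 3, 4 and 7 the value stayed at 0.59 ± 0.19, just outside the threshold (adjusted p = 0.0506). Muscle genes were higher in Diet switch than in HFD, and without the libraries high in them the value was 0.64 ± 0.19 (adjusted p = 0.0219). Semaglutide libraries had 29.8, 39.2 and 49.1 CPM, all 8 below the Diet switch median, and their mean of 39.3 ± 6.58 CPM gave a log2 fold change of -0.63 ± 0.17 against Diet switch (adjusted p = 0.0104). Without the libraries high in B cell genes it was -0.57 ± 0.20 (adjusted p = 0.063), and without Diet switch libraries 3, 4 and 7 it was -0.64 ± 0.19 (adjusted p = 0.0733). In Tirzepatide, libraries ran from 32.8 through 40.3 to 84.4 CPM, and the log2 fold change against HFD was 0.22 ± 0.17 (adjusted p = 0.389). The last base of Mccc1 is covered by Gm15952 on the opposite strand, so reads of the pair cannot be told apart if strand was not used.

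Mccc2 encodes the beta subunit that joins Mccc1 in the same enzyme, and it was called in none of the 10 comparisons. Its means were 16.1 ± 8.76 CPM in Tirzepatide, 18.7 ± 6.64 CPM in Semaglutide, 17.6 ± 5.02 CPM in Diet switch, 18.3 ± 2.57 CPM in HFD and 17.7 ± 5.45 CPM in ND. In Diet switch against HFD its log2 fold change was -0.06 ± 0.24, beside 0.58 ± 0.17 for Mccc1. The log2 difference of Mccc1 over Mccc2 averaged 1.78 ± 0.56 in Diet switch, 1.11 ± 0.41 in HFD and 1.67 ± 0.47 in ND, with overlap between the groups. Auh, the hydratase of the next step, had means of 55.1 ± 8.05 CPM in Tirzepatide, 54.1 ± 15.1 CPM in Semaglutide, 61.2 ± 10.9 CPM in Diet switch, 68.4 ± 12.3 CPM in HFD and 63.8 ± 13.1 CPM in ND. All 8 Tirzepatide libraries and 7 of 8 Semaglutide libraries lay below the HFD median, with log2 fold changes of -0.31 ± 0.15 and -0.34 ± 0.15 that did not pass (adjusted p = 0.149 and 0.214).

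Hibch, the hydrolase that frees hydroxyisobutyrate in the valine branch, passed the test in none of the 10 comparisons. Its lowest, median and highest libraries had 12.0, 31.2 and 75.5 CPM in Tirzepatide, 29.6, 44.4 and 72.5 CPM in Semaglutide, 23.1, 41.8 and 66.1 CPM in Diet switch, 20.9, 33.9 and 50.2 CPM in HFD and 26.4, 35.4 and 57.1 CPM in ND. The 5 groups overlapped, and its log2 fold changes had SEs of 0.25 to 0.26. The group of highest mean was Semaglutide, at 45.9 ± 14.5 CPM, with a log2 fold change of 0.43 ± 0.26 against HFD (adjusted p = 0.357).

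A further 19 genes of the pathway were tested. On HFD against ND, 1 rose, Bcat1, and none fell. In Tirzepatide against HFD, 3 rose (among them Ppm1k and Echs1, an enoyl-CoA hydratase) and 4 fell (Bcat1, Acat1, Mcee and Pcca). Over all genes tested, 2.83% were called higher and 1.68% lower on HFD against ND, and 9.79% and 10.7% in Tirzepatide against HFD. Acat1, the thiolase that ends the isoleucine branch, averaged 140 ± 61.7 CPM in Tirzepatide and 283 ± 55.3 CPM in HFD, with 8 of 8 libraries below the HFD median (log2 fold change -1.01 ± 0.20, adjusted p = 0.000283). Its fall in Tirzepatide against HFD was called under every alternative tried, at -1.20 to -0.88. Echs1 rose by 0.51 ± 0.15 on the log2 scale in that comparison (adjusted p = 0.0122). Pcca and Mcee belong to the steps that break down the propionyl-CoA made from valine and isoleucine. They had log2 fold changes of -0.46 ± 0.16 and -0.44 ± 0.15. With each library left out in turn, Pcca was called in 9 of 16 fits and Mcee in 11 of 16. Without the libraries high in muscle genes Pcca was at -0.21 ± 0.19 (adjusted p = 0.518).

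In Diet switch against HFD, 4 of the 19 rose (among them Echs1, Ppm1k and Pccb) and 2 fell (Bcat1 and Mmab). Of all genes tested, 12.8% were called higher there and 10.9% lower. Mmab, which makes the cobalamin cofactor of methylmalonyl-CoA mutase, had 9.26, 13.9 and 25.6 CPM in the lowest, median and highest Diet switch libraries and 19.6, 34.4 and 46.0 CPM in those of HFD, a log2 fold change of -1.08 ± 0.22 (adjusted p = 0.000465). Echs1, Ppm1k and Pccb were no longer called without Diet switch libraries 3, 4 and 7, whereas Mmab was still called. In Semaglutide against HFD edgeR called none of the 19, beside 1.52% of all genes called higher and 2.63% lower, and 4 had an unadjusted p under 0.05. The median log2 fold change of the 19 was 0.13 in Tirzepatide, 0.00 in Semaglutide and 0.21 in Diet switch against HFD, and -0.11 in HFD against ND.

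Of 4 genes for transport across the plasma membrane, Slc43a1, a carrier for leucine and other large neutral amino acids, changed most. Its lowest, median and highest libraries had 12.8, 28.1 and 37.3 CPM in Tirzepatide, 5.19, 9.22 and 19.8 CPM in Semaglutide, 13.6, 27.0 and 57.4 CPM in Diet switch, 2.96, 4.33 and 6.31 CPM in HFD and 6.67, 14.5 and 19.3 CPM in ND. No Tirzepatide, Diet switch or ND library overlapped an HFD library. Slc43a1 fell on HFD against ND by 1.67 ± 0.30 on the log2 scale (adjusted p = 0.000278). It rose in Tirzepatide, Semaglutide and Diet switch against HFD, with log2 fold changes of 2.59 ± 0.30, 1.28 ± 0.31 and 2.90 ± 0.30 (adjusted p = 3.93e-08, 0.0089 and 1.24e-08). Without Diet switch libraries 3, 4 and 7, which were its highest, the last was 2.24 ± 0.29 (adjusted p = 2.11e-06). In Tirzepatide against Semaglutide it rose by 1.31 ± 0.28 (adjusted p = 0.00261). Without the libraries high in B cell genes that rise was 0.98 ± 0.30 (adjusted p = 0.0453). Slc3a2, the heavy subunit of another carrier, fell, and averaged 206 ± 46.0 CPM in Tirzepatide, 142 ± 41.1 CPM in Diet switch and 343 ± 56.7 CPM in HFD, with log2 fold changes of -0.74 ± 0.18 and -1.28 ± 0.18 against HFD (adjusted p = 0.00248 and 1.65e-06). The Tirzepatide call of Slc3a2 was lost without the libraries high in muscle genes, at -0.65 ± 0.23 (adjusted p = 0.0616). Its partner Slc7a5 fell by 1.04 ± 0.34 on the log2 scale in Tirzepatide (adjusted p = 0.0233), at 2.57 ± 0.789 CPM, against 5.38 ± 1.93 CPM in HFD, and was not called without the libraries high in muscle genes (adjusted p = 0.177).

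**Figure D4:**
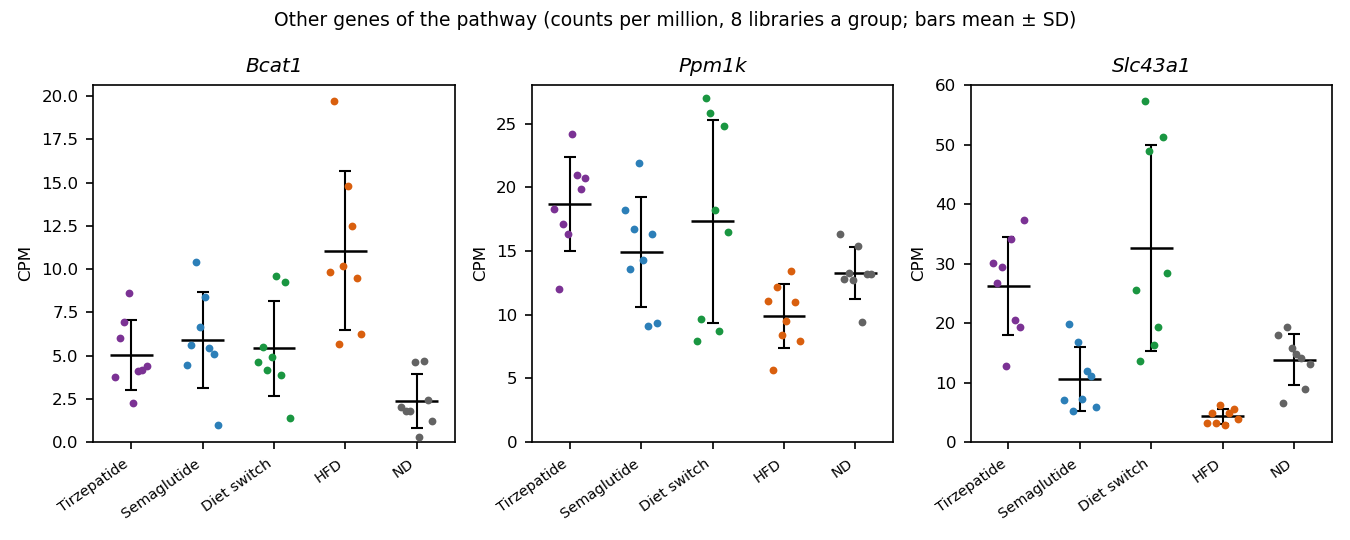
CPM (y axis) of Bcat1, Ppm1k and Slc43a1 in the 8 libraries of each group (x axis), with mean and SD as bars. Bcat1 is highest in HFD, at 11.1 CPM, while Slc43a1 is lowest there, at 4.36 CPM.

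Of 5 transcriptional regulators linked to the pathway, Mlxipl, which encodes the carbohydrate response factor ChREBP, fell to 21.1 ± 3.77 CPM in HFD, against 44.9 ± 14.5 CPM in ND, with no overlap (log2 fold change -1.10 ± 0.17, adjusted p = 2.71e-05). It rose in Tirzepatide against HFD by 0.73 ± 0.17 on the log2 scale (adjusted p = 0.0021). Ppara and Ppargc1a, a nuclear receptor and a coactivator of oxidative genes, rose in Tirzepatide against HFD by 1.37 ± 0.28 and 1.26 ± 0.28 (adjusted p = 0.000455 and 0.00133). None of the 5 was called by edgeR in Semaglutide or in Diet switch against HFD, where 3 and 4 had an unadjusted p under 0.05. Pyruvate dehydrogenase, the sister complex, was read from 10 genes: on HFD against ND 2 fell, Pdhb and Pdha1, at -0.72 ± 0.17 and -0.61 ± 0.18 (adjusted p = 0.00516 and 0.0292). In Tirzepatide against HFD 2 rose, the kinase Pdk2 at 0.98 ± 0.17 (adjusted p = 5.47e-05) and the phosphatase subunit Pdp2 at 0.64 ± 0.19 (adjusted p = 0.015). The core subunit Dlat fell, at -0.72 ± 0.20 (adjusted p = 0.00786), and was not called without the libraries high in muscle genes (-0.60 ± 0.22, adjusted p = 0.0745). Pdp2 was not called without Tirzepatide library 6 (adjusted p = 0.0562). In Diet switch against HFD 3 rose, Pdha1, Pdhb and Pdk1, all 3 of them also without Diet switch libraries 3, 4 and 7. With each library left out in turn, Pdha1 was called in 16 of 16 fits, Pdhb in 11 (not without HFD library 4, 6 or 7 or Diet switch library 5 or 7) and Pdk1 in 9 (not without HFD library 1, 3, 4 or 8 or Diet switch library 5, 7 or 8). Without the libraries high in muscle genes Pdk1 was at 0.79 ± 0.31 and was not called (adjusted p = 0.0807). Pdha1 was not called on HFD against ND without the libraries high in muscle genes (adjusted p = 0.219). In that comparison, with each library left out in turn, Pdha1 was called in 10 of 16 fits and Pdhb in 16 of 16. Of 16 genes of the tricarboxylic acid cycle, 0 were called on HFD against ND, with 3 at an unadjusted p under 0.05. In Tirzepatide against HFD 2 rose, Sdhb and Idh3g, and 2 fell, Sdhc and Cs, of which Sdhc and Cs were not called without the libraries high in muscle genes (adjusted p = 0.123 and 0.15). Over the alternatives other than a 1.5-fold limit, the highest adjusted p there was 0.0261 for Sdhb and 0.0522 for Idh3g. In Diet switch against HFD 3 rose, among them Sdhb and Idh3g, and neither of these was called without Diet switch libraries 3, 4 and 7 (adjusted p = 0.137 and 0.431). With each library left out in turn, Cs was called in 12 of 16 fits in Tirzepatide and Idh3g in 6 of 16 in Diet switch. Over all genes, 2.83% were called higher and 1.68% lower on HFD against ND. Against HFD the shares were 9.79% and 10.7% in Tirzepatide, 1.52% and 2.63% in Semaglutide, and 12.8% and 10.9% in Diet switch.

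Within groups, several of the enzymes followed the amount of adipocyte RNA in a library. After the mean of each group was removed, the Pearson r with the mean level of 10 adipocyte markers over 40 libraries was 0.712 for Auh (rho = 0.676, permutation p = 1e-05 for both, the smallest that 100000 permutations within groups can give). It was 0.667 for Hibch (rho = 0.661) and 0.621 for Mccc1 (rho = 0.642), with adjusted permutation p-values of 0.0002 and 0.000267 for r over the 20 relations computed. For Bckdhb r was 0.682 (rho = 0.57, adjusted permutation p = 0.00035) and 0.489 without the 2 libraries farthest from the median marker level, ND 5 and Semaglutide 1, both high in B cell genes. Without the same 2 libraries r was 0.651 for Auh, 0.704 for Hibch and 0.691 for Mccc1. Mccc2 and Ivd had r of 0.437 and 0.413 (rho = 0.459 and 0.451, adjusted permutation p = 0.0493 for both r, just inside the threshold). Without the same 2 libraries r was 0.476 and 0.367. Tirzepatide library 8, the deepest, lay farthest above its group mean in marker level, by 0.515. It was also the highest point for Mccc2, Hibch and Mccc1, at 1.165, 1.232 and 0.912. The relations without it were not computed. Bcat2, at r = 0.212 (rho = 0.19), Bckdk, at 0.181 (rho = 0.15), Dbt, at 0.313 (rho = 0.315), and Bckdha, at 0.0967 (rho = 0.07), did not pass (adjusted permutation p = 0.496, 0.528, 0.163 and 0.737). With the muscle marker level none of the 10 passed, and Mccc1 came nearest at r = -0.395 (rho = -0.352, adjusted permutation p = 0.0606). Mean adipocyte marker levels were 10.37 ± 0.26 log2 CPM in Tirzepatide, 10.39 ± 0.29 in Semaglutide, 10.46 ± 0.23 in Diet switch, 10.57 ± 0.11 in HFD and 10.41 ± 0.30 in ND.

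**Figure D5:**
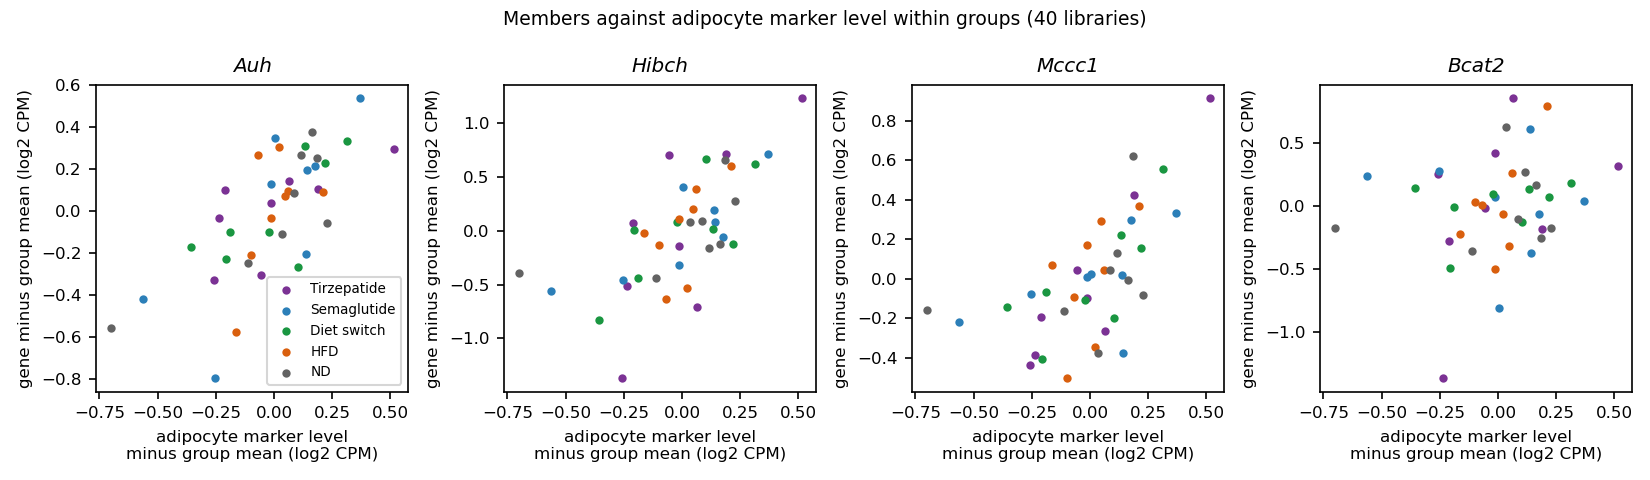
Log2 CPM of Auh, Hibch, Mccc1 and Bcat2 (y axis) against the mean log2 CPM of 10 adipocyte markers (x axis) in 40 libraries, each minus the mean of its group, coloured by group. The points rise together for Auh (r = 0.712), Hibch (0.667) and Mccc1 (0.621) and less so for Bcat2 (0.212).

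The genes most alike to the members were ranked by Pearson r with the mean of the 10 standardized log2 CPM values. The ranking over the 40 libraries is a description only. Libraries differed in depth and adipocyte marker level, which all genes read from a library share. The genes ranked highest were Eif4ebp1 (r = 0.842), Maob (0.754), Pccb (0.725), Metap1d (0.723), Rbms2 (0.718), Sdha (0.693), Pex11a (0.687) and Prkd1 (0.68). With group means removed, r was 0.86 for Eif4ebp1 and 0.668 for Pccb. Pccb, a subunit of propionyl-CoA carboxylase, is itself a gene of the pathway, and Sdha encodes a subunit of succinate dehydrogenase.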

How the data were processed

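RNA from 40 sWAT samples was made into QuantSeq 3' libraries, per the labels' protocols. The deposited table holds raw counts per gene symbol. The build mm10 is named in the submitters' processing notes, while aligner, counter and use of strand were not stated. The series also has a table of normalized values, not used here.

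Counts of 15807 genes that passed edgeR's default filter (99.39% of counts) were scaled by TMM and tested with edgeR 4.0.16 (R 4.3.3) by the robust quasi-likelihood test in 1 fit of 40 libraries, with Benjamini-Hochberg adjustment over all genes tested and a threshold of 0.05. The SE is the log2 fold change divided by the square root of its F. CPM used TMM library sizes, and log2 values a prior count of 2. Alternatives used DESeq2 1.42.0, limma 3.58.1, other filters and sample sets. The procedure was first tested on counts simulated for HFD over ND. It called 5.97% of 67 genes changed 1.5-fold, 50.7% of 67 changed 2-fold and 85.9% of 64 changed 4-fold. Most 1.5-fold changes were missed there, so a gene that was not called may still have changed.

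The members and lists were chosen with earlier results of these data known. Named were all 10 members, up to 4 genes of each list with the smallest adjusted p in a comparison, and the 8 genes most alike, except that some genes of the lists are not reported here by name. Gene positions are from GENCODE M21 (GRCm38) and promoter windows from RefSeq (GRCm38.p6). Marker lists for macrophages, endothelium, progenitor fibroblasts, brown adipocytes and mammary epithelium were also read: mean levels were 5.24 to 7.14, 5.47 to 6.57, 6.20 to 8.07 and 1.25 to 4.56 log2 CPM, and mammary epithelium was near the floor in every library, at -0.95 to 0.89 log2 CPM.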

Additional observations from a re-analysis of the deposited data

Results flagged for a closer look

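Each of the 10 enzymes was checked in each of the 5 groups for a highest or lowest library far from the other 7, by the gap to its nearest neighbour as a share of the group's range. Of 50 such groups 5 were marked, and chance marks about 1 in 20. Bckdha had 10.4 CPM in Semaglutide library 2, against 5.38 CPM in the next library. Mccc2 had 34.8 CPM in the same library, against 18.2 CPM in the next. Ivd had 283 CPM in Tirzepatide library 1, the shallowest library, against 172 CPM in the next. Mccc1 had 84.4 CPM in ND library 7, against 59.8 CPM in the next. Bckdk had 55.0 CPM in HFD library 4, the HFD library high in muscle genes, against 42.9 CPM in the next.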

How the results depend on the processing

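The number of members called kept within 1.5 times its value in 257 of 280 alternative fits, and no called log2 fold change changed sign. In HFD over ND it was 2, in place of 1, with only the 2 groups compared (Bcat2) and with muscle level as a covariate (Mccc1). In Tirzepatide over HFD it was 1, in place of 2, without the muscle-high libraries. In Diet switch over HFD it was 2, in place of 1, with only the 2 groups compared (Bcat2), and 0 without Diet switch libraries 3, 4 and 7 and with a further limit of 1.5-fold. In Semaglutide over ND it was 1, in place of 0, with limma-voom and with muscle level as a covariate (Mccc1). In Tirzepatide over Semaglutide it was 2, in place of 1, with DESeq2 and without Diet switch libraries 3, 4 and 7 (Bckdk). In Semaglutide over Diet switch it was 0, in place of 1, without the B-cell-high libraries and without Diet switch libraries 3, 4 and 7. The cause was not tested, beyond there being fewer libraries where some were left out. With each library left out in turn, the count ran from 1 to 2 in HFD over ND, 0 to 0 in Semaglutide over HFD, 2 to 2 in Tirzepatide over HFD, 1 to 2 in Diet switch over HFD, 0 to 1 in Tirzepatide over ND, 1 to 2 in Tirzepatide over Semaglutide and 0 to 1 in Tirzepatide over Diet switch; it was 0 throughout in Semaglutide and Diet switch over ND and 1 throughout in Semaglutide over Diet switch. Bcat2 was called in HFD over ND without HFD 8, in Diet switch over HFD without HFD 8 or Diet switch 6, and in Tirzepatide over ND without ND 1 or Tirzepatide 4. The labels do not state whether library numbers pair the groups. Of 80 same-numbered pairs 18 deviated together with r above 0.1 (median 0.0314, range -0.349 to 0.259). Pairs of different numbers were not computed, so these values cannot decide it. With the replicate block, 2 members were called in Diet switch over HFD (Bcat2, 0.50 ± 0.18, adjusted p = 0.038), and the block changed the count in no other comparison. Over all genes tested, the number called moved by more than 1.5 times as follows. In HFD over ND it was 1289 with limma-voom, in place of 712. In Semaglutide over HFD it was 1013 with only the 2 groups, 1263 with limma-voom and 412 without the B-cell-high libraries, in place of 656. Without the muscle-high libraries it was 1666 in Tirzepatide over HFD, 542 in Tirzepatide over ND, 382 in Tirzepatide over Semaglutide and 6 in Tirzepatide over Diet switch, in place of 3246, 1591, 1584 and 63. Without Diet switch libraries 3, 4 and 7 it was 1148, 112, 276 and 347 in Diet switch over HFD, Diet switch over ND, Semaglutide over Diet switch and Tirzepatide over Diet switch, in place of 3759, 2338, 2101 and 63. In Semaglutide over ND it was 267 with no filter and 952 with limma-voom, in place of 417, and in Tirzepatide over ND 2451 with limma-voom. With only the 2 groups it was 1470 in Diet switch over ND, 1213 in Semaglutide over Diet switch and 1 in Tirzepatide over Diet switch. In Tirzepatide over Semaglutide it was 698 with muscle level as a covariate and 959 without the B-cell-high libraries. Without those it was 1230 in Semaglutide over Diet switch and 123 in Tirzepatide over Diet switch, where DESeq2, limma-voom and the replicate block gave 231, 120 and 99. With single libraries left out it ran from 437 to 789 in Semaglutide over HFD, 256 to 853 in Semaglutide over ND, 1046 to 1797 in Tirzepatide over ND, 1321 to 3075 in Diet switch over ND, 35 to 357 in Tirzepatide over Diet switch and 1367 to 2797 in Semaglutide over Diet switch. Depth limits Bckdha most, with 59 to 116 counts summed over a group.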
